A study of Mus musculus with 12 samples.

Results

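The direct comparison of early with later deletion of Nkx2-5 rests on 8 of the 12 hearts of the series, chosen by their sample titles. In all 8 mice a floxed Nkx2-5 allele (Floxed-Nkx2-5-ΔNeo) was deleted by Cx40-creERT2, a tamoxifen-inducible Cre carried at the locus of connexin 40 (Gja5), which is active in trabecular cardiomyocytes. Cre was induced by tamoxifen given to pregnant mothers, on E10.5 and E11.5, when ventricular trabeculae form, for the 4 mice called Nkx2-5ΔTrbE10 (TrbE10, Nkx2-5Δtrab in the labels). For the 4 mice called Nkx2-5ΔTrbE14 (TrbE14, Nkx2-5Δcomp in the labels) it was given on E13.5 and E14.5, when trabeculae compact. Pups of injected mothers were delivered by caesarean section and raised by CD1 foster mothers. RNA came from the left ventricular wall with the apex and without the septum at 6 months of age, with 1 heart on each one-colour Agilent array. The 4 control hearts, littermates without Cre according to the methods and not injected according to the labels, were the same age and give the level of each gene on the same scale. Every value is bulk RNA, in which fewer cells of a type and less RNA per cell cannot be told apart.

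All TrbE10 arrays lay on a slide of their own, and the TrbE14 arrays shared the other slide with the controls, so that stage and slide cannot be told apart in any difference given here. Between 23575 and 24556 probes per TrbE10 array and between 24119 and 26149 per TrbE14 array were well above background. Y-linked signal was present in TrbE10 replicates 2 and 4, in TrbE14 replicates 2, 3 and 4 and in 1 of 4 controls, and Xist in the others. Ventricular muscle genes such as Myl2, Myl3, Tnni3 and Mybpc3 were well above background in all 12 hearts. Nothing in the labels says more of the replicates than that they are numbered samples of a group. The p-values set a difference against the spread between hearts within a group and do not cover variation between slides.

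Trabeculae are the muscular ridges that line the embryonic ventricle, and as development proceeds they compact into the wall and give rise to the papillary muscles and the Purkinje network. Nkx2-5 is a homeodomain transcription factor that is required for this process and for the identity of ventricular muscle. Genes of the stressed cardiomyocyte, of the matrix and of immune cells are usual markers of remodelling in the adult heart. The comparison asks how the adult left ventricle differs between deletion while trabeculae form and deletion while they compact. In the paper early induction reached more of the left ventricular wall than later induction, which stayed in its inner part. Stage and extent of deletion therefore cannot be told apart here.

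No gene differed between the mutants after correction for multiple testing. Of 24139 probes that were well above background in at least 3 of the 4 arrays of either mutant, 0 had an adjusted p under 0.05 in limma, the smallest being 0.254, and SAM called 0. At an unadjusted p under 0.05 there were 1213 probes (5.03%). Taking the brightest probe of each of 17743 gene names, 915 passed this level (5.16%), 463 of them higher in TrbE10 (2.61%) and 452 higher in TrbE14 (2.55%). The 4 arrays of one mutant lay wholly above the 4 of the other for 602 gene names (3.39%), 291 higher in TrbE10 (1.64%) and 311 higher in TrbE14 (1.75%). For such a gene the exact two-sided permutation p is 0.0286, the smallest that 70 orders of 8 arrays allow. When arrays were instead scaled by their 75th percentile, the counts were 368 higher and 545 lower in TrbE10 at this unadjusted level. Differences below are log2 signal in TrbE10 minus TrbE14 with limma's p, and none of them passed the adjusted threshold.

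The log2 signal of Nkx2-5 was 11.27, 11.67, 11.21 and 11.22 in TrbE10 replicates 1 to 4, 11.12, 11.57, 11.32 and 11.63 in TrbE14 and 11.95, 12.23, 11.93 and 11.89 in control hearts. All 8 mutant hearts lay below all 4 controls, and the mutants overlapped. Their difference was -0.06 ± 0.15 (SE), with a 95% interval of -0.42 to 0.29 (unadjusted p = 0.689, adjusted p = 0.99). The probe lies at chr17:26975621-26975680 on the minus strand (mm9), and its place relative to the floxed part is not given in the sources used here. Gja5, whose locus carries the Cre, had a log2 signal of 7.17, 7.43, 7.31 and 6.77 in TrbE10 and 8.16, 7.34, 6.83 and 7.05 in TrbE14 hearts, again overlapping. Its difference was -0.17 ± 0.28 (SE).

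The transcriptomes were then read by 40 lists of genes with known roles, 672 of whose 758 genes had a probe above background. Among these 672 genes, 40 were higher and 20 lower in TrbE10 at an unadjusted p under 0.05. Of gene names that match a reference symbol, 4.47% passed this level, 2.63% higher and 1.84% lower, and 1.76% lay higher and 1.41% lower without overlap. Of 1839 probes for unnamed genomic intervals, 41 were higher and 137 lower at this level. Over all gene names the median difference was 0.0041. List medians ran from -0.37 for immediate early genes, a value that was -0.015 without TrbE14 replicate 3, to 0.86 for MHC class II presentation, which lay between 0.72 and 1.08 with each array left out in turn. With each array left out in turn, 33 of the 40 medians turned or moved by over 1.5 times under at least 1 omission, and 12 of them turned. The other 7 were those of MHC class II, macrophages, resident cardiac macrophages, interferon-inducible genes, DNA replication, smooth muscle and nerve. In 6 of the 40 lists the level of the list, the median over its members of each value minus its mean over the 8 mutant arrays, did not overlap between the mutants. These were MHC class II, macrophages, resident cardiac macrophages and DNA replication, higher in TrbE10, and smooth muscle and potassium channels, lower in TrbE10.

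**Figure D1:**
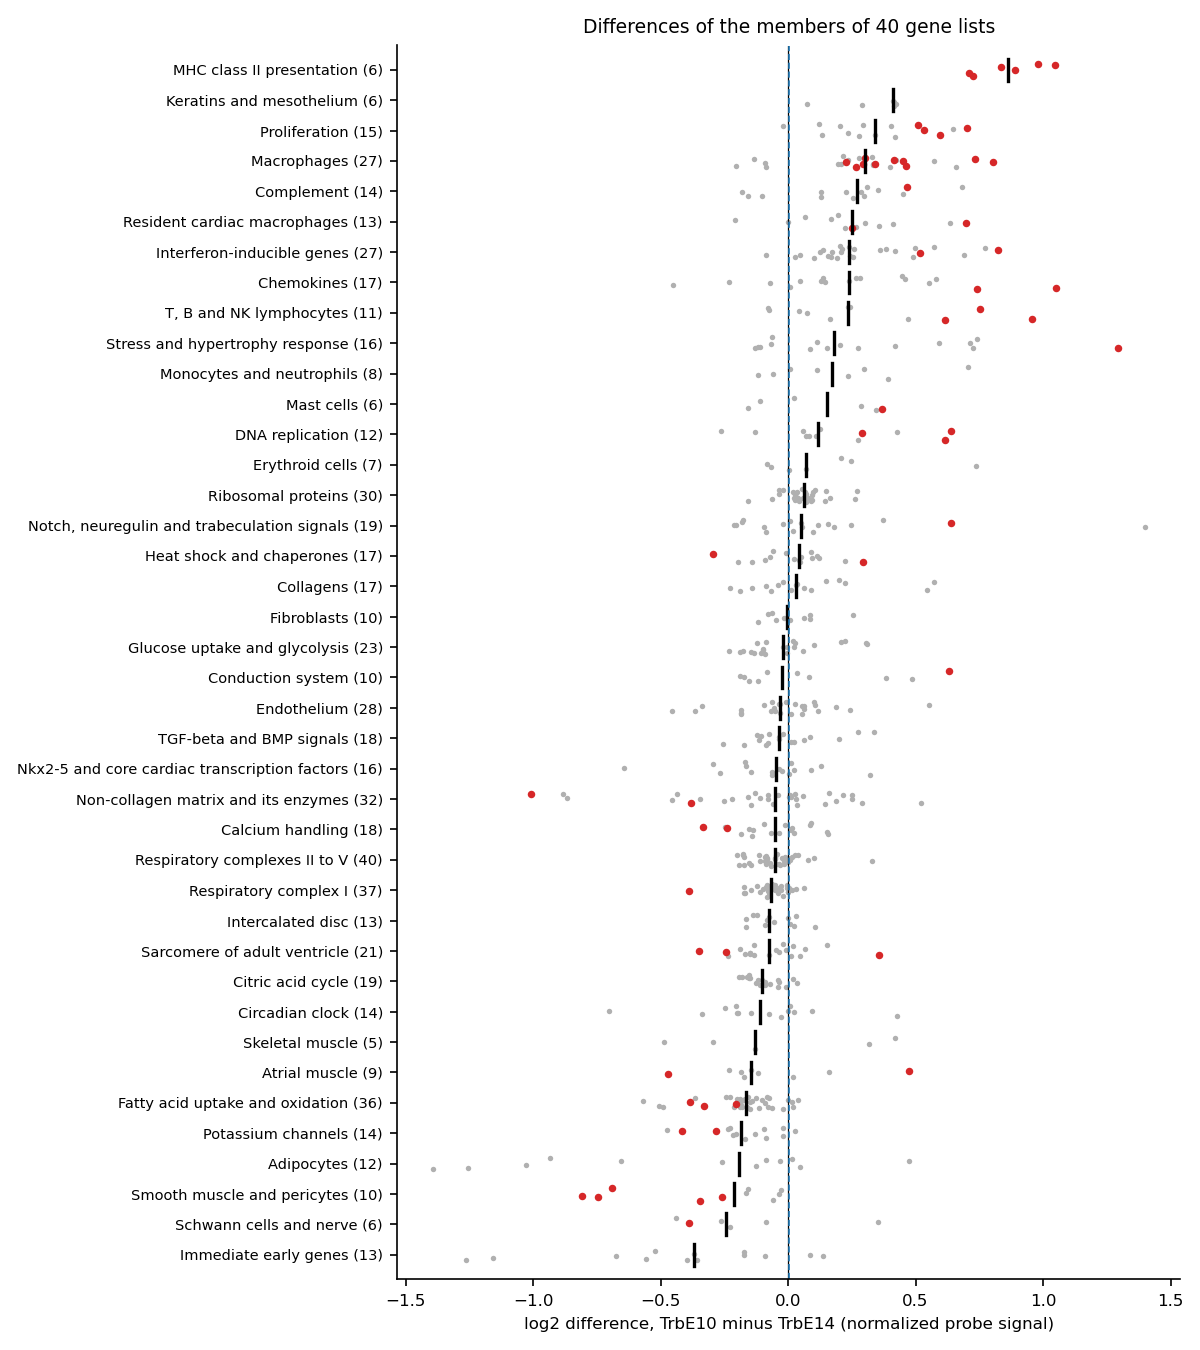
Log2 difference (TrbE10 minus TrbE14, x axis) of every measured member of the 40 gene lists (y axis, members in brackets). Red points have an unadjusted p under 0.05, grey points do not, black bars are list medians and the dashed line is the median of all gene names (0.0041). Immune lists lie to the right, up to 0.86 for MHC class II, and smooth muscle, potassium channels and fatty acid oxidation to the left.

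The largest shift of a list was in MHC class II presentation, the molecules with which macrophages, dendritic cells and B cells show peptides to CD4+ T cells. Of its 10 genes 6 were measured, all 6 were higher in TrbE10 with an unadjusted p under 0.05, and 3 did not overlap. H2-Aa, the alpha chain of the I-A molecule, had a log2 signal of 9.64, 9.77, 10.10 and 10.42 in TrbE10 and 8.84, 8.77, 9.30 and 8.85 in TrbE14 hearts. In control hearts it was 9.80, 9.83, 10.53 and 9.82, so that the TrbE14 hearts stood below both other groups. The difference was 1.05 ± 0.19 (SE) (unadjusted p = 0.000597, adjusted p = 0.425). H2-DMa, a chain of the chaperone that loads peptide onto class II, was at 8.04, 8.01, 7.85 and 8.23 in TrbE10, 7.22, 7.40, 7.43 and 7.24 in TrbE14 and 7.64, 7.63, 8.37 and 7.75 in control hearts. Its spread within a mutant was small against the difference of 0.71 ± 0.11 (SE) (unadjusted p = 0.000133, adjusted p = 0.27). H2-DMb1, the partner chain, was at 9.09, 9.10, 9.32 and 9.54 in TrbE10, 8.50, 8.63, 8.77 and 8.24 in TrbE14 and 8.67, 8.81, 9.66 and 8.95 in control hearts. Every TrbE14 heart lay below every TrbE10 heart, but TrbE14 replicate 3 lay above control 1. The difference between the mutants was 0.73 ± 0.15 (SE) (unadjusted p = 0.00112).

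In the other members 1 TrbE14 heart reached the TrbE10 range. H2-Eb1, the beta chain of I-E, was at 12.18, 12.26, 12.82 and 13.16 in TrbE10 and 11.36, 11.48, 12.18 and 11.45 in TrbE14 hearts (difference 0.98, unadjusted p = 0.00585). H2-Ab1, the beta chain of I-A, was at 12.44, 12.69, 13.19 and 13.45 and 11.62, 11.92, 12.59 and 12.06 (difference 0.89, unadjusted p = 0.0105). Cd74, the invariant chain that guides class II through the cell, was at 12.26, 12.12, 12.88 and 12.87 and 11.27, 11.45, 12.45 and 11.62 (difference 0.83, unadjusted p = 0.0198). In each of them TrbE14 replicate 3 was the high heart, and the other 3 TrbE14 hearts lay below all TrbE10 hearts. The level of the list was 0.16, 0.20, 0.67 and 0.85 in TrbE10, -0.68, -0.60, -0.03 and -0.56 in TrbE14 and 0.01, -0.01, 0.82 and 0.08 in control hearts. Ciita, the class II transactivator, H2-DMb2, H2-Oa and H2-Ob did not pass the filter on background.

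The promoters of class II genes carry a conserved pair of elements, the X box and the Y box, that are bound by RFX and NF-Y and read by the class II transactivator. The promoters of H2-Aa, H2-Eb1, H2-DMb1 and H2-DMa were read, and the 150 bases before the start are shown for the 3 genes that held the letters sought. The capitals mark these letters, CTNGNAACT, within the X box, and TGATTGG, the Y box. The sequences are from RefSeq on GRCm38.p6, for H2-Aa at chr17:34287824-34287973 (minus strand), for H2-Eb1 at chr17:34305717-34305866 and for H2-DMb1 at chr17:34153041-34153190 (plus strand), 5′ to 3′ along the gene.
H2-Aa: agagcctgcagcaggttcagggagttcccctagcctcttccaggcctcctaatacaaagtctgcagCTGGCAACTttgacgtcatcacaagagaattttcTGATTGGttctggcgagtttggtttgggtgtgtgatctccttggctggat
H2-Eb1: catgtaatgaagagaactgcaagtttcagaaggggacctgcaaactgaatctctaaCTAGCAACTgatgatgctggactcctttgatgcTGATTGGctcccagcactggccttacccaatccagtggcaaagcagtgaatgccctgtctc
H2-DMb1: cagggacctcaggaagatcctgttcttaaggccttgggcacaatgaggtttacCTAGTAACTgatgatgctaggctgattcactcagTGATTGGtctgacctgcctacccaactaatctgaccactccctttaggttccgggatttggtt
The start of CTNGNAACT lay 34, 33 and 34 bases before that of TGATTGG in H2-Aa, H2-Eb1 and H2-DMb1, and TGATTGG began 50, 61 and 63 bases before the gene. Over 32851 promoters in the reference table, each the 250 bases before and the 50 after a start and read on both strands, 7.82% held TGATTGG, 4.1% held CTNGNAACT and 0.35% held both. The 2 starts listed for H2-DMa held neither in the 250 bases before them. The letters were chosen after reading these promoters, and a match is a description of the sequence.

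**Figure D2:**
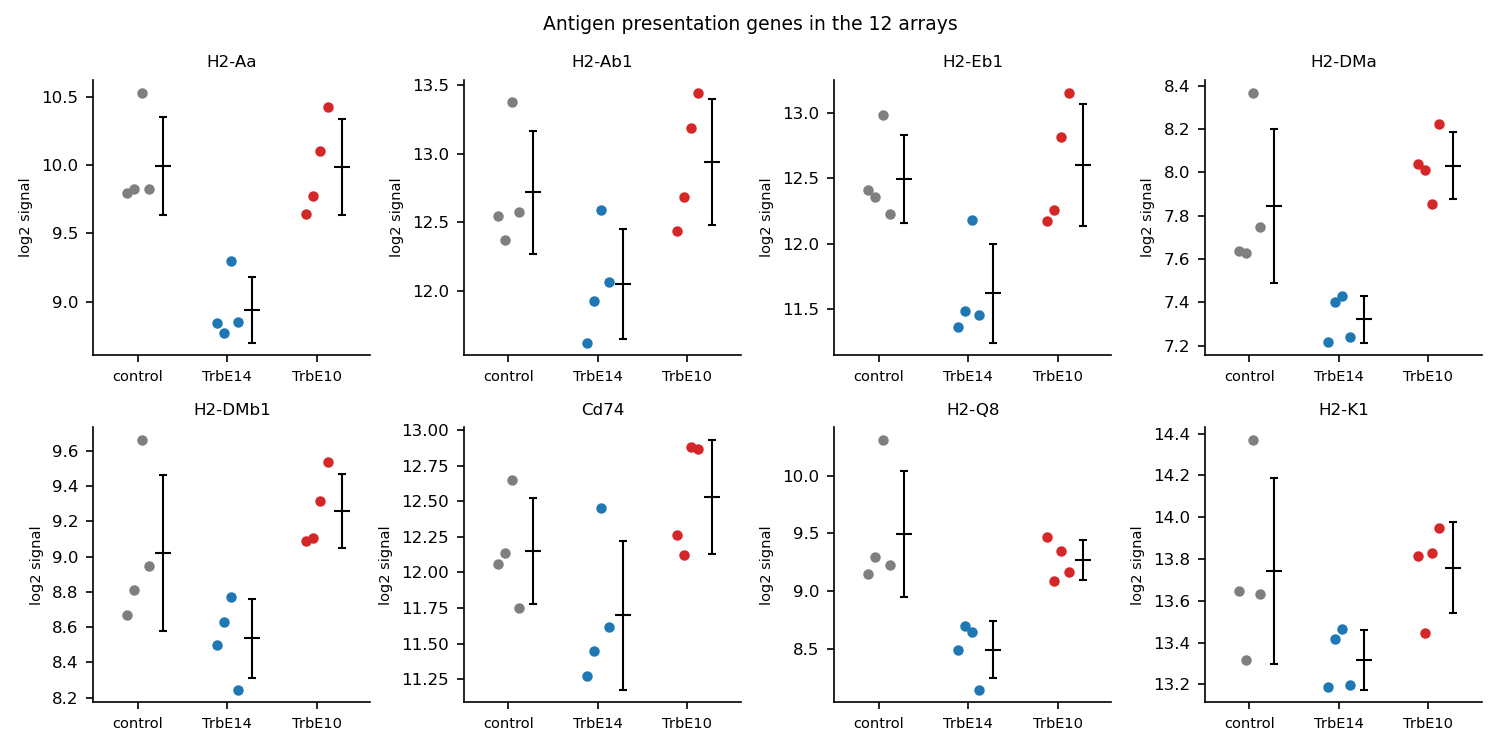
Log2 signal (y axis) of 6 MHC class II and 2 class I genes in the 12 arrays, by group. Points are hearts, and the black mark and bar are the mean and SD of 4 hearts. The TrbE14 mean was the lowest of the 3 groups in each gene, and the hearts of the mutants did not overlap for H2-Aa (8.77 to 9.30 in TrbE14 against 9.64 to 10.42 in TrbE10) but did for H2-Ab1, H2-Eb1, Cd74 and H2-K1.

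The class II genes lie within the major histocompatibility complex on chromosome 17, and its class I genes present peptides on nearly all cells. Of 23 gene names beginning with H2- between 34076578 and 37618439 on chromosome 17 (mm9), 20 were higher in TrbE10, 17 of them with an unadjusted p under 0.05 and 10 without overlap, and the median difference was 0.43. H2-Q8, a nonclassical class I gene, was at 9.47, 9.09, 9.35 and 9.17 in TrbE10 and 8.49, 8.70, 8.65 and 8.15 in TrbE14 hearts. Its 4 TrbE14 hearts were below all TrbE10 and all control hearts (9.15 to 10.31), with a difference of 0.77 (unadjusted p = 0.000697). H2-K1 differed by 0.44, H2-D1 by 0.36 and H2-T23 by 0.46. The 3 names with lower values in TrbE10 were the class I gene H2-Gs10, listed as H2-Q4 in the reference (-0.06, unadjusted p = 0.594), and H2-Ke2 and H2-Ke6, which do not present antigen (-0.06 and -0.16), and the class I gene H2-T24 was at 0.03. Class I genes are near-identical copies whose probes can share targets, so these counts are not of independent genes. Tap1, which pumps peptides to class I, and Psmb8, a subunit of the immunoproteasome, lie in the same stretch and differed by 0.49 (unadjusted p = 0.00767) and 0.33 (unadjusted p = 0.031).

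Macrophage genes were higher in TrbE10. Of 28 such genes 27 were measured, 23 were higher in TrbE10, 10 of them with an unadjusted p under 0.05 and 7 without overlap, and none was lower at this level. Tyrobp, an adaptor of activating receptors, was at 11.44, 11.38, 11.30 and 11.30 in TrbE10, 11.17, 11.05, 10.86 and 10.68 in TrbE14 and 10.59, 10.47, 10.94 and 10.58 in control hearts. Every TrbE10 heart lay above every TrbE14 heart (difference 0.42 ± 0.12 (SE), unadjusted p = 0.00794, adjusted p = 0.765). Ctss, the lysosomal protease cathepsin S, was at 10.61, 10.496, 11.09 and 11.03 in TrbE10 and 10.41, 10.38, 10.25 and 10.33 in TrbE14 hearts, all above the controls at 9.38 to 10.03. Aif1, an actin-bundling protein of macrophages, differed by 0.45 (unadjusted p = 0.0171) and Fcgr1, the high-affinity Fc receptor, by 0.80 (unadjusted p = 0.0066), the latter with 1 TrbE14 heart above the lowest TrbE10 heart. Among the rest, Cd68, Fcgr3, Csf1r and Trem2 did not overlap, with differences of 0.34, 0.27, 0.23 and 0.29. Csf1r, the receptor of macrophage colony-stimulating factor, shows the order of the groups: 13.41, 13.26, 13.48 and 13.38 in TrbE10, 13.15, 13.23, 13.15 and 13.10 in TrbE14 and 12.19, 12.15, 12.43 and 12.19 in control hearts.

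Resident cardiac macrophages, the long-lived population of the heart, had 12 of 13 genes higher in TrbE10 and a median of 0.25, 2 with an unadjusted p under 0.05. Maf, a transcription factor of these cells, was at 8.24, 8.48, 8.50 and 8.15 in TrbE10 and 7.68, 7.90, 7.49 and 7.52 in TrbE14 hearts, without overlap (difference 0.70 ± 0.13 (SE), unadjusted p = 0.000608, adjusted p = 0.425). Its controls, at 8.05, 7.80, 7.67 and 7.57, lay nearer the TrbE14 hearts. Mrc1, the mannose receptor, differed by 0.25 (unadjusted p = 0.0402). Cd207, a lectin, and Vsig4, a complement receptor, were far above control in both mutants. Cd207 was at 10.13 to 11.18 in TrbE10 and 10.34 to 10.44 in TrbE14 hearts, overlapping, against 2.93 to 4.33 in control hearts, and Vsig4 at 10.91 to 11.65 and 10.84 to 11.29 against 7.09 to 7.38. For the macrophage list the level was 0.19, 0.02, 0.29 and 0.15 in TrbE10, -0.12, -0.18, -0.23 and -0.18 in TrbE14 and -0.70, -0.57, -0.27 and -0.57 in control hearts.

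**Figure D3:**
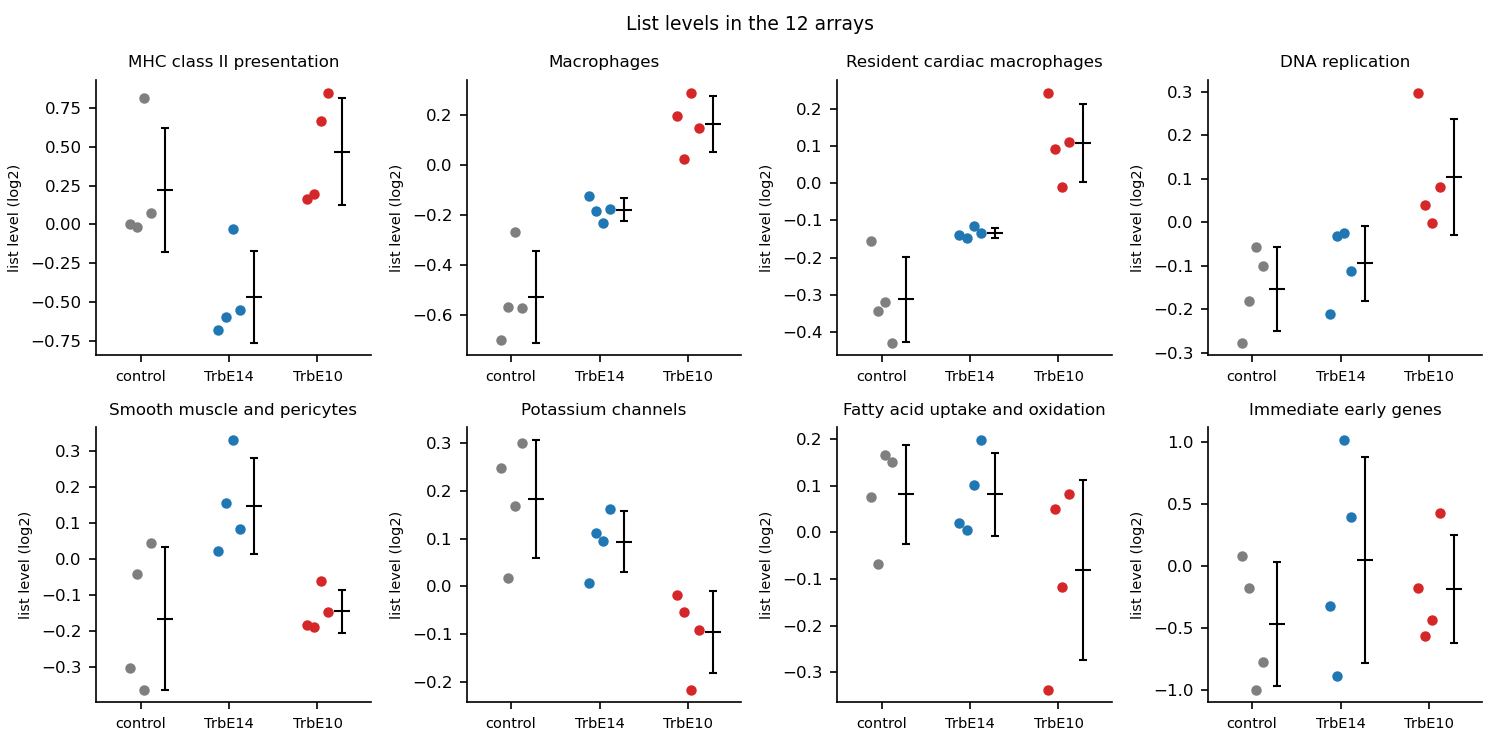
Level of 8 gene lists (y axis, log2, relative to the mean of the 8 mutant arrays) in each of the 12 arrays, by group. Points are hearts, and the black mark and bar are the mean and SD of 4 hearts. Macrophage levels of the mutants do not overlap, immediate early genes spread across both mutants, and the TrbE14 mean of class II is the lowest of the 3 groups.

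Other immune lists leaned the same way with fewer members past the unadjusted level, which 4.47% of all names with a reference symbol passed. Interferon-inducible genes were higher in TrbE10 in 26 of 27 cases with a median of 0.24, 2 passing the unadjusted level, Zbp1 (0.52, unadjusted p = 0.00754) and Ifit3 (0.82, unadjusted p = 0.0414), and 0 without overlap. For lymphocytes 3 of 11 genes passed, Lck (0.61), Cd3d (0.75) and Cd2 (0.96), all of T cells. Cd2 was well above background on 0 of 4 TrbE14 arrays and Cd3d on 1 of 4, so both passed the filter only through TrbE10. The difference of Cd2 was 0.17 after normexp background correction and 0.0013 in the authors' values, against 0.12 and 0.20 for Cd3d. The median of the lymphocyte list was 0.23, and it was 0.059 after normexp background correction and 0.055 in the authors' values. Complement component C3 was at 14.14, 14.00, 14.62 and 14.34 in TrbE10 and 13.67, 13.86, 13.94 and 13.76 in TrbE14 hearts, without overlap (difference 0.46, unadjusted p = 0.0113). The chemokines Ccl8 and Ccl4 differed by 1.05 (unadjusted p = 0.0383) and 0.74 (unadjusted p = 0.0478), each with overlapping hearts. The list of monocytes and neutrophils had 0 members past this level in either direction, and Ccr2 did not pass the filter on background. Of the mast cell genes, Kit passed, at 0.37 (unadjusted p = 0.0328), while the granule genes Cpa3, Cma1 and Mcpt4 were at 0.28, 0.34 and -0.11.

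Cxcr3, the chemokine receptor of effector T cells, passed the filter on background only through TrbE10, where it was high. Its log2 signal was 5.34, 5.03, 6.29 and 4.93 in TrbE10, 2.73, 2.99, 2.51 and 3.39 in TrbE14 and 4.67, 6.12, 6.25 and 5.56 in control hearts. It was well above background on 4 of 4 TrbE10 arrays and on 0 of 4 TrbE14 arrays. With TrbE14 values raised to the lowest signal called above background on each array, TrbE10 hearts had 2.09-fold more signal (fitted difference 2.49 ± 0.32 (SE), unadjusted p = 4.12e-05, adjusted p = 0.254). That ratio is not a lower bound, as the difference was 0.64 on the log2 scale after normexp correction and 0.47 in the authors' values, both smaller. Cd6, a receptor of T cells, was at 5.14, 5.53, 5.99 and 5.24 and 4.00, 4.19, 4.28 and 4.15, again not well above background on any TrbE14 array. With values raised in the same way it was 2.02-fold higher in TrbE10 (unadjusted p of the fit = 7.95e-05, adjusted p = 0.27). Ptpn7, a phosphatase of blood cells, was at 5.42, 5.07, 6.38 and 4.12 and 3.75, 3.89, 3.24 and 3.99, with 3 of 4 TrbE10 arrays above background. By the same measure it was 1.88-fold higher in TrbE10 (unadjusted p of the fit = 0.00698). All of these probes are dim, and for Cd6 and Ptpn7 too the difference was smaller than the bound under other background treatment, at 0.41 and 0.53 after normexp and 0.29 and 0.52 in the authors' values.

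Cell cycle genes were higher in TrbE10 hearts. Of 26 proliferation genes 15 were measured, 14 were higher in TrbE10, 4 passed the unadjusted level and 2 did not overlap. The median of 0.34 was 0.16 after normexp correction. Aurka, the mitotic kinase Aurora A, was at 5.90, 5.80, 5.62 and 5.66 in TrbE10 and 4.86, 5.48, 4.68 and 5.16 in TrbE14 hearts (difference 0.70 ± 0.17 (SE), unadjusted p = 0.0035, adjusted p = 0.684). The lowest TrbE10 heart was thus above the highest TrbE14 heart, with controls at 3.55 to 5.46. Foxm1, a transcription factor of mitotic genes, differed by 0.51 (unadjusted p = 0.0108), Ccnb2 by 0.53 and Cdca8 by 0.59. Under the alternatives of processing listed at the end, Foxm1, Ccnb2 and Cdca8 came down to 0.12, 0.19 and 0.16 and Aurka to 0.33. Mki67, the usual marker of dividing cells, was at 6.54, 7.41, 6.60 and 6.55 in TrbE10 and 6.13, 7.03, 6.05 and 6.29 in TrbE14 hearts and overlapped, replicate 2 being the highest of each mutant. In the DNA replication list 10 of 12 were higher and 3 passed, all without overlap. Mcm3, a subunit of the replicative helicase, was at 8.93, 8.65, 8.85 and 8.89 in TrbE10, 8.02, 7.93, 8.49 and 8.41 in TrbE14 and 8.21, 8.16, 7.99 and 7.87 in control hearts (0.62, unadjusted p = 0.00295). E2f1, which switches on S-phase genes, differed by 0.64 (unadjusted p = 0.0025) and Mcm6 by 0.29 (unadjusted p = 0.0319), while Pcna was at 0.07. E2f1 came down to 0.31 under the alternatives and Mcm3 to 0.52. Macrophage genes were higher in the same hearts, with list levels of 0.19, 0.02, 0.29 and 0.15 in TrbE10 and -0.12, -0.18, -0.23 and -0.18 in TrbE14, and their part in the cell cycle values was not tested.

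Smooth muscle genes were lower in TrbE10, all 10 measured members, 5 of them with an unadjusted p under 0.05 and 3 without overlap. Tagln, an actin-binding protein of smooth muscle, was at 12.67, 12.43, 12.65 and 12.28 in TrbE10, 12.73, 13.51, 13.80 and 12.99 in TrbE14 and 12.20, 12.87, 12.04 and 12.88 in control hearts. Every TrbE14 heart stood above every TrbE10 heart, with a difference of -0.75 ± 0.23 (SE) (unadjusted p = 0.0116, adjusted p = 0.808), and the controls overlapped both. Cnn1, calponin, was at 9.85, 9.61, 10.12 and 9.45 in TrbE10 and 9.88, 10.99, 11.18 and 10.21 in TrbE14 hearts (difference -0.81, unadjusted p = 0.0269). Myh11, the smooth muscle myosin heavy chain, differed by -0.69 (unadjusted p = 0.0203), Mylk, the myosin light chain kinase, by -0.35 (unadjusted p = 0.0149), and Synpo2, an actin-associated protein, by -0.26 (unadjusted p = 0.0253). In Cnn1 and Myh11 TrbE14 replicates 2 and 3 were the high hearts and replicate 1 lay within the TrbE10 range. Acta2, smooth muscle actin, was at 15.26, 14.42, 15.06 and 13.93 in TrbE10 and 15.37, 14.59, 14.98 and 13.97 in TrbE14 hearts (-0.06), overlapping, as did the pericyte genes Pdgfrb (-0.04), Cspg4 (-0.03) and Rgs5 (-0.16). The list's level was -0.18, -0.19, -0.06 and -0.15 in TrbE10, 0.02, 0.15, 0.33 and 0.08 in TrbE14 and -0.30, -0.04, -0.36 and 0.05 in control hearts.

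Pde5a and Gucy1b2 were among the 12 largest differences lower in TrbE10. Pde5a, the phosphodiesterase that breaks down cyclic GMP, was at 9.88, 9.85, 9.56 and 9.98 in TrbE10, 10.85, 10.51, 10.67 and 10.49 in TrbE14 and 9.50, 10.51, 10.29 and 10.57 in control hearts. The mutants were far apart for their spread (difference -0.81 ± 0.13 (SE), unadjusted p = 0.000179, adjusted p = 0.27), while the controls ran from the range of TrbE10 into that of TrbE14. Gucy1b2, a subunit of soluble guanylate cyclase, was at 6.41, 6.36, 6.65 and 6.55 in TrbE10 and 7.22, 7.15, 7.60 and 7.33 in TrbE14 hearts (-0.83, unadjusted p = 0.000134, adjusted p = 0.27), with controls at the TrbE14 level (7.06 to 7.45).

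Potassium channels, which repolarise the cardiomyocyte, were lower in TrbE10 for 13 of 14 genes, with a median of -0.19. Kcnd2, a pore subunit of the fast transient outward current, was at 9.10, 9.27, 9.22 and 9.39 in TrbE10, 9.49, 9.90, 9.56 and 9.69 in TrbE14 and 9.81, 9.77, 9.97 and 9.65 in control hearts. The groups were ordered from control down to TrbE10, with TrbE10 below every other heart and TrbE14 overlapping control (difference of the mutants -0.41 ± 0.12 (SE), unadjusted p = 0.00701, adjusted p = 0.765). Kcnk3, a background channel, was at 12.63, 12.95, 13.001 and 12.85 in TrbE10 and 13.06, 13.07, 13.18 and 13.25 in TrbE14 hearts (-0.28, unadjusted p = 0.0288), also without overlap. Kcna5 and Kcnd3, pores of other outward currents, were at -0.47 and -0.23 and did not pass, and Kcnj2, of the inward rectifier, was at 0.03. For the list the level was -0.02, -0.05, -0.22 and -0.09 in TrbE10 and 0.01, 0.11, 0.09 and 0.16 in TrbE14 hearts. Without TrbE10 replicate 3, the lowest, its median difference was -0.08.

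Calcium handling and the sarcomere showed small differences. Of 18 calcium genes, 2 passed the unadjusted level, Cacnb2, a subunit of the L-type channel (-0.33, unadjusted p = 0.0319), and Atp2a2, the calcium pump SERCA2 (-0.24, unadjusted p = 0.0488), both lower in TrbE10. Ryr2, the calcium release channel, was at 13.01, 13.33, 13.11 and 12.99 in TrbE10 and 13.45, 13.55, 13.13 and 13.30 in TrbE14 hearts, overlapping (-0.25). Of 21 sarcomere genes, 15 were lower in TrbE10 with a median of -0.08. Ldb3, which holds the Z disc together, was at 14.35, 14.36, 14.37 and 14.35 in TrbE10 and 14.59, 14.55, 14.94 and 14.75 in TrbE14 hearts, tight in TrbE10 and without overlap (-0.35, unadjusted p = 0.00892). Cmya5, a protein of the muscle Z disc region, differed by -0.24 (unadjusted p = 0.0411). Myh6, the adult alpha-myosin heavy chain, went the other way on its brightest probe, 17.996, 18.24, 18.12 and 17.91 against 17.78, 17.69, 17.78 and 17.58 (0.36, unadjusted p = 0.00776), but its other probe overlapped with a difference of -0.15, so the probes disagree. In the core list of cardiac transcription factors 0 of 16 genes passed, with Gata4 at -0.17, Tbx5 at 0.01 and Tbx20 at 0.13. For the intercalated disc 0 of 13 passed.

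Of 132 measured genes of the respiratory chain, the citric acid cycle and fatty acid oxidation, 115 were lower in TrbE10 and 17 higher. The unadjusted level was passed by 4, all lower (3.03%). Of all names with a reference symbol, 1.84% passed it as lower and 4.47% in either direction. Without overlap there were 7, also all lower, where 1.41% of all such names were lower without overlap. The levels of all 4 lists overlapped between the mutants. The medians were -0.07 for complex I, -0.05 for complexes II to V, -0.10 for the citric acid cycle and -0.16 for fatty acid uptake and oxidation. Ndufb2, a subunit of complex I, was at 14.89, 15.11, 14.94 and 14.92 in TrbE10, 15.28, 15.29, 15.32 and 15.55 in TrbE14 and 15.51, 15.31, 15.42 and 15.34 in control hearts. It was the 1 gene of its complex past the unadjusted level, with the TrbE14 hearts at the control level (-0.39 ± 0.10 (SE), unadjusted p = 0.00403, adjusted p = 0.712). Hadha, the alpha subunit of the trifunctional protein of fatty acid oxidation, was at 13.53, 13.82, 13.62 and 13.81 in TrbE10 and 13.90, 13.85, 14.19 and 14.15 in TrbE14 hearts (-0.33, unadjusted p = 0.0229). Echs1, an enoyl-CoA hydratase of the same pathway, differed by -0.20 (unadjusted p = 0.04) and the fatty acid transporter Slc27a1 by -0.39 (unadjusted p = 0.0372). The list's level was -0.34, 0.05, -0.12 and 0.08 in TrbE10 and 0.02, 0.00, 0.10 and 0.20 in TrbE14 hearts, so the groups overlapped and TrbE10 replicate 1 was the lowest. Leaving that heart out moved the median from -0.16 to -0.07 and that of complex I from -0.07 to -0.02. Genes of glycolysis had a median of -0.02 with 0 of 23 past the unadjusted level.

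Among 16 stress genes and 9 measured atrial genes, 1 and 2 passed the unadjusted level, where 4.47% of all names with a reference symbol did. Vgll2, a cofactor of TEAD factors in muscle, was at 11.85, 12.09, 12.85 and 12.55 in TrbE10, 11.19, 11.07, 11.20 and 10.70 in TrbE14 and 7.94, 8.45, 8.24 and 7.83 in control hearts. The 3 groups did not overlap, and the mutants differed by 1.30 ± 0.23 (SE) (unadjusted p = 0.000394, adjusted p = 0.369). Mybphl, a myosin-binding protein of atrial and conduction muscle, was at 9.35, 8.56, 8.92 and 8.99 in TrbE10 and 7.39, 8.33, 7.60 and 7.82 in TrbE14 hearts (1.17, unadjusted p = 0.000914, adjusted p = 0.429), with controls spread from 5.59 to 9.22. Sln, sarcolipin, an atrial inhibitor of the calcium pump, was at 14.16, 13.54, 14.42 and 14.27 and 13.87, 13.71, 13.53 and 13.38, overlapping because of TrbE10 replicate 2 (0.47, unadjusted p = 0.0448), against 8.58 to 12.48 in control hearts. Nppa, the atrial natriuretic peptide, was at 16.85, 14.72, 16.96 and 16.52 and 15.84, 15.42, 15.95 and 16.15, against 12.93 to 15.04 in control hearts, with an interval of the difference of -0.66 to 1.499. Nppb, the brain natriuretic peptide, was at 14.21, 12.98, 13.65 and 13.71 and 13.29, 12.02, 13.28 and 13.09 (interval -0.07 to 1.502), with controls at 12.14 to 13.71. Myh7, the fetal beta-myosin, was at 16.67, 15.88, 17.12 and 17.21 and 15.88, 15.39, 17.06 and 16.17 (interval -0.33 to 1.52), with controls at 13.30 to 13.96. In these 3 genes replicate 2 of each mutant was the lowest of its group, and the mutants overlapped. Stard10, of the atrial list, differed by -0.47 (unadjusted p = 0.0194). Bmp10, a growth factor of embryonic trabeculae, was at 6.55, 5.33, 7.59 and 7.05 in TrbE10 and 6.89, 6.60, 7.03 and 6.73 in TrbE14 hearts, and it was well above background on 0 of 4 control arrays, and the interval of the difference between the mutants was -1.15 to 0.79.

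**Figure D4:**
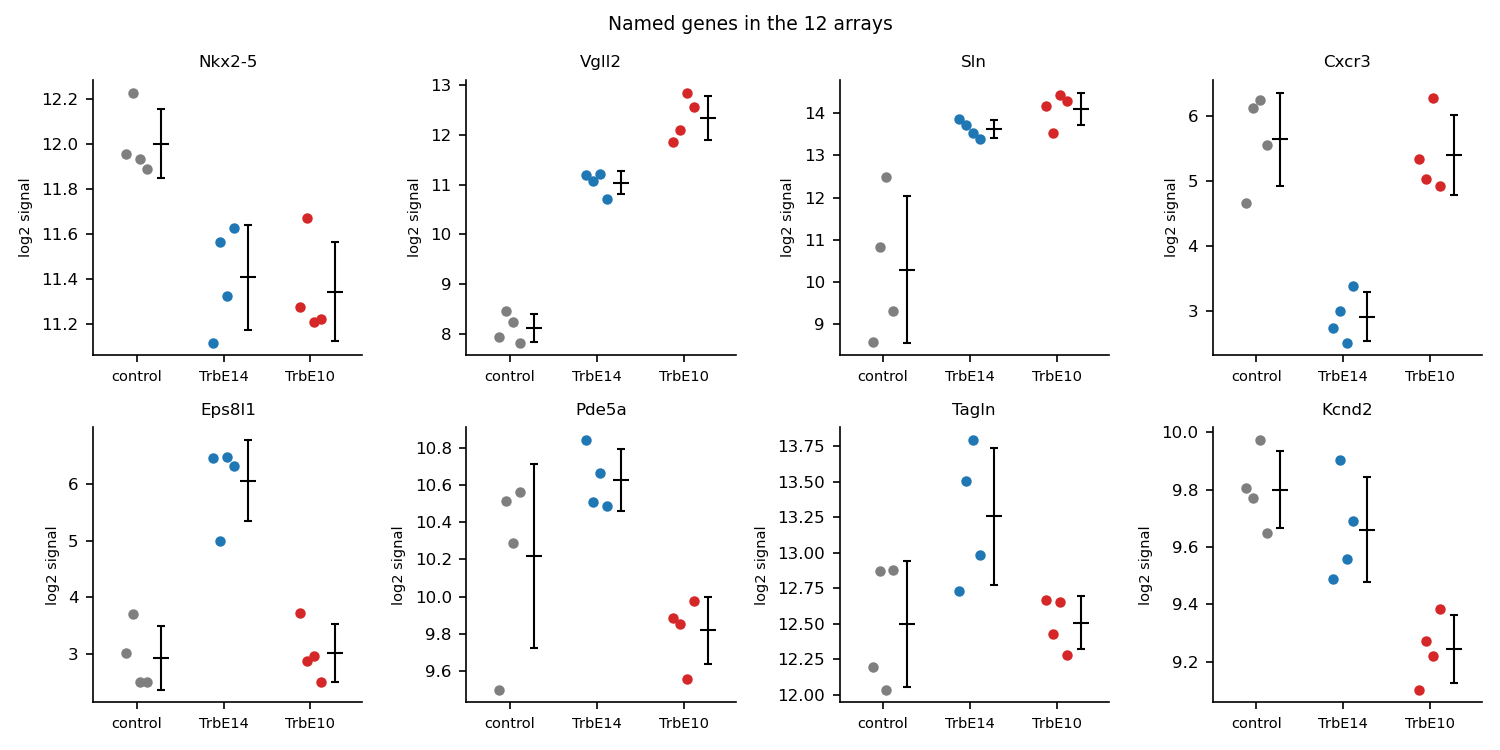
Log2 signal (y axis) of 8 named genes in the 12 arrays, by group. Points are hearts, and the black mark and bar are the mean and SD of 4 hearts. Vgll2 is graded from control (7.83 to 8.45) through TrbE14 (10.70 to 11.20) to TrbE10 (11.85 to 12.85), and Eps8l1 is high in TrbE14.

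Among 19 measured genes of Notch and neuregulin signalling 1 passed, where 4.47% of all names with a reference symbol did. It was Nrg1, the neuregulin with which the endocardium drives trabecular growth, at 7.89, 6.77, 7.37 and 7.06 in TrbE10 and 6.76, 6.30, 7.02 and 6.45 in TrbE14 hearts (0.64, unadjusted p = 0.0359). All 8 mutant hearts were above the controls at 5.50 to 6.10. Notch1 had a larger difference of 1.40 that did not pass (unadjusted p = 0.0681), since its TrbE14 hearts ran from 5.84 to 9.33. In the conduction list 1 of 10 passed, Sema3a, a guidance cue that keeps sympathetic nerves off the conduction tissue, at 0.63 (unadjusted p = 0.0106), while Tbx3, Etv1 and Irx3 were at -0.15, -0.08 and 0.08. Sema3a was well above background on 4 of 4 TrbE10 and on 2 of 4 TrbE14 arrays, so it passed the filter only through TrbE10, where it was high. Its difference came down to 0.16 under the alternatives. S100b, of Schwann cells, was -0.39 (unadjusted p = 0.0303).

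Lists of the matrix and the stroma had medians near that of all genes. Collagens had a median of 0.03, fibroblasts -0.00, endothelium -0.03 and TGF-beta and BMP signals -0.04, with 0 members of any of these lists past the unadjusted level. In the non-collagen matrix list 2 of 32 passed, both lower in TrbE10. Of all names with a reference symbol, 4.47% passed in either direction and 1.84% as lower. Fbn1, fibrillin, was at 8.80, 8.87, 9.13 and 9.08 in TrbE10, 9.22, 9.36, 9.48 and 9.34 in TrbE14 and 8.56, 8.85, 8.67 and 8.64 in control hearts (-0.38, unadjusted p = 0.00795), so that TrbE14 was the higher mutant. Fmod, fibromodulin, differed by -1.01 (unadjusted p = 0.0464) with overlapping hearts. Keratins and mesothelium had a median of 0.41, all 6 measured members being higher in TrbE10, but 0 passed and TrbE10 replicate 2 lay far below the other 3 hearts of its group. Ribosomal protein genes were higher in TrbE10 in 25 of 30 cases by a median of 0.06, 0 passing. Hsp90aa1, a chaperone, was higher in TrbE10 (0.29, unadjusted p = 0.0455) and Hspb7, a small heat shock protein of muscle, lower (-0.30, unadjusted p = 0.0354). Erythroid genes, the clock, skeletal muscle and adipocytes had 0 members past the level, with medians of 0.07, -0.11, -0.13 and -0.19. With each array left out in turn these medians ran from -0.27 to 0.47, from -0.31 to 0.10, from -0.21 to -0.035 and from -0.38 to -0.15. Those of erythroid genes and the clock thus turned with single hearts, while those of skeletal muscle and adipocytes kept their direction.

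The largest source of variation among the 8 hearts did not follow the date of deletion. The first principal component held 40.3% of the variance, with TrbE14 replicates 3 and 4 and TrbE10 replicate 4 at one end (55.3, 38.8 and 31.2) and the first 2 replicates of each mutant at the other (between -33.2 and -23.9). Each replicate number was also the row of the array on its slide, so heart and row cannot be told apart. Immediate early genes, which respond within minutes to stimulation, varied along this component. Their list level was -0.17, -0.56, -0.43 and 0.43 in TrbE10 and -0.32, -0.88, 1.02 and 0.39 in TrbE14 hearts, highest in TrbE14 replicate 3 and TrbE10 replicate 4. The median difference of the list, -0.37, was -0.015 without TrbE14 replicate 3 and -0.76 without TrbE14 replicate 2, and 0 of 13 members passed the unadjusted level, Fos being at -1.16 (unadjusted p = 0.283) and Fosb at -1.26 (unadjusted p = 0.417). Clock genes spread likewise, with levels of -0.11, -0.70, 0.15 and 0.44 in TrbE10 and -0.30, -0.58, 0.41 and 0.49 in TrbE14 hearts.

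Among the largest single differences, several lay together on the genome. Of 331 windows of 5 Mb with at least 20 tested gene names, the highest share past the unadjusted level was at the start of chromosome 7 (mm9, 1 to 5000000), where 12 of 64 passed (18.8%, against 5.16% over all), 7 higher and 5 lower in TrbE10. The next were the window from 35000001 to 40000000 of chromosome 17 (18 of 103, 17.5%), which holds class I genes, and that from 85000001 to 90000000 of chromosome 1 (8 of 46, 17.4%). The window from 30000001 to 35000000 of chromosome 17, with the class II genes, had 12.3%. These windows were found by looking at the results, and neighbouring probes can share a transcript.

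On chromosome 7 the higher genes were paired immunoglobulin-like receptors of myeloid cells. Pira2 was at 6.97, 6.49, 6.85 and 6.70 in TrbE10, 6.30, 5.46, 3.65 and 4.49 in TrbE14 and 5.82, 5.29, 5.48 and 5.61 in control hearts (1.78, unadjusted p = 0.00734). TrbE14 replicates 3 and 4 were the lowest hearts of all groups. Pira2, Pira7, Pira11 and Gm10693 were well above background on 4 of 4 TrbE10 and on 2 of 4 TrbE14 arrays. They thus passed the filter, and entered the count of the window, only through TrbE10, where they were high. Under the alternatives the difference of Pira2 came down to 0.68 and that of Gm10693 to 1.15. Lilra6 was at 9.24, 8.52, 8.98 and 8.93 and 8.46, 7.98, 6.94 and 7.20 (1.27), and the further copies Pira6, Pira7, Pira11, Gm10693 and Gm14548 differed by between 1.08 (Gm14548) and 2.20 (Gm10693). These genes are close copies whose probes may read one another, so their values are not independent, and which copy differed is uncertain. Further along the window, Eps8l1, a relative of the actin regulator Eps8, was at 3.73, 2.87, 2.97 and 2.51 in TrbE10, 6.46, 4.99, 6.47 and 6.32 in TrbE14 and 3.02, 3.71, 2.50 and 2.51 in control hearts. It was well above background on 4 of 4 TrbE14 and on 0 of 4 TrbE10 arrays. The gene thus passed the filter only through TrbE14, where it was high, and it did not pass a filter of 6 of 8 arrays. With TrbE10 values raised to the lowest signal called above background on each array, TrbE14 hearts had 2.79-fold more signal (fitted difference -3.04 ± 0.38 (SE), unadjusted p = 3.87e-05, adjusted p = 0.254). That ratio is not a lower bound, as the difference was -0.93 on the log2 scale after normexp correction and -0.999 in the authors' values. The Eps8l1 probe lies at chr7:4430514-4430573. Isoc2a, in the same window at chr7:4843143-4843202, was at 7.15, 7.34, 7.88 and 8.12 and 8.24, 8.21, 8.68 and 9.15, also higher in TrbE14 (-0.95, unadjusted p = 0.00898), with controls at 7.11 to 7.83.

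Other large differences stood alone, and the size of those in dim probes depends on the background correction, with 35 of 80 named genes smaller by over 1.5 times or turned after normexp. 1700008P20Rik, listed as Tescl in the reference, had the largest difference higher in TrbE10, 3.07 (unadjusted p = 0.0155), from 8.12, 8.91, 7.63 and 8.09 in TrbE10 and 6.77, 7.43, 3.21 and 3.07 in TrbE14 hearts. TrbE14 replicates 3 and 4 were not well above background, and controls lay at 8.15 to 8.83. Rab33a, a small GTPase, was at 7.38, 6.44, 8.05 and 6.91 in TrbE10, 6.16, 5.63, 4.90 and 5.45 in TrbE14 and 4.01, 4.84, 4.82 and 4.03 in control hearts (1.66, unadjusted p = 0.00202, adjusted p = 0.601), and the 3 groups did not overlap. Fam167b differed by 1.45 (unadjusted p = 0.0103), was well above background on 1 of 4 TrbE14 arrays and came down to 0.45 under the alternatives. Pck1, the gluconeogenic enzyme, was at 4.203, 2.23, 4.58 and 5.34 in TrbE10 and 6.40, 5.86, 6.25 and 5.87 in TrbE14 hearts (-2.01, unadjusted p = 0.00825), with 2 of 4 TrbE10 arrays above background, and at -0.67 after normexp. Ephb2, an ephrin receptor, was at 6.78, 6.74, 6.73 and 6.76 in TrbE10 and 7.55, 7.27, 7.76 and 7.54 in TrbE14 hearts, very tight in TrbE10 (-0.78, unadjusted p = 9.46e-05, adjusted p = 0.27). Its controls, at 7.04 to 7.55, were near TrbE14. Fam123a, listed as Amer2 in the reference, differed by -0.83 (unadjusted p = 7.23e-05, adjusted p = 0.27), Kirrel3, a cell adhesion molecule, by -0.81, Lypd2 by -0.74, Olfr319 by -1.13 and 4930519H02Rik by -0.88. Olfr319 and 4930519H02Rik came down to -0.49 and -0.22 under the alternatives, and neither passed a filter of 6 of 8 arrays. An unadjusted p smaller than those above belonged to a dimmer probe of Slc25a37, a mitochondrial iron carrier, lower in TrbE10 by a difference of -1.56 (unadjusted p = 2.68e-05, adjusted p = 0.254), but the brightest probe of the same gene was at 10.08, 10.37, 10.62 and 9.88 and 9.95, 10.24, 10.04 and 10.09 and overlapped (0.16), so its probes disagree.

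Set beside the controls, the groups of genes were graded in different ways. Over all gene names the mean of TrbE14 lay between those of control and TrbE10 for 40.1%. This held for 17 of 19 citric acid cycle genes, 31 of 37 of complex I, 11 of 14 potassium channels and 21 of 27 macrophage genes. The macrophage list had a median of 0.71 in TrbE10 minus control and 0.41 in TrbE14 minus control. Potassium channels had -0.35 and -0.08, and stress genes 0.55 and 0.28. In MHC class II no gene of 6 had TrbE14 in the middle: the medians were 0.20 in TrbE10 and -0.60 in TrbE14. Smooth muscle was likewise not graded, at -0.0046 in TrbE10 and 0.33 in TrbE14. Both sets of values share the control hearts, and these also share a slide with TrbE14, so the order of the groups was not tested.

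**Figure D5:**
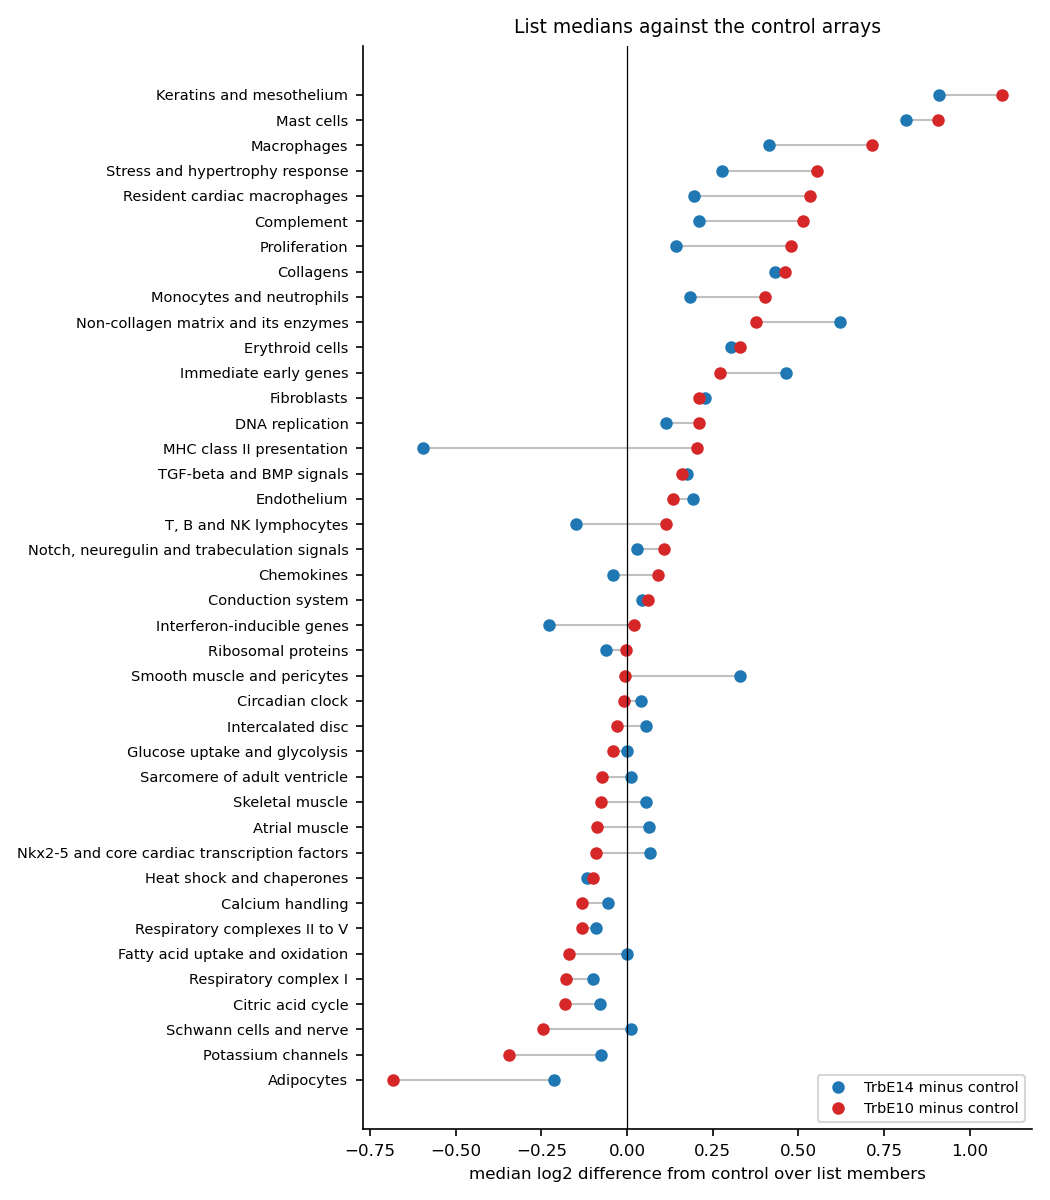
Median log2 difference from the control arrays (x axis) over the measured members of each of the 40 lists (y axis), for TrbE14 (blue) and TrbE10 (red). Both medians use the same 4 control hearts, and macrophages (0.41 and 0.71) and MHC class II (-0.60 and 0.20) show a graded and an opposed pair.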

How the data were processed

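Left ventricular RNA of 12 mice (4 per group) was labelled with Cy3 and hybridised to one-colour Agilent arrays of 55681 probes. The deposited scanner files hold each spot's processed signal intensity, which the authors extracted with Agilent Feature Extraction 10.5. The log2 values of the authors' deposited table are their own normalization of the same arrays and served as an alternative (rank correlation with the scanner values 0.999 to 1.00 per array). Here log2 intensities were quantile normalized over the 12 arrays, control spots and outlier spots left out, and spots of a probe averaged. Probes entered the fit when 3 or more arrays of TrbE10, or of TrbE14, called them well above background, and the brightest kept probe stands for a gene. The 8 mutant arrays were fitted with limma 3.58.1 (R 4.3.3, residual df 6) with Benjamini-Hochberg adjustment at 0.05; SAM used 70 relabellings. Precision is limited by the number of arrays. The code was tested on simulated data.

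Genes are named where they were among the 12 largest differences in either direction with an unadjusted p under 0.05 and no overlap, or among the 4 smallest p of a list, with markers of remodelling, the targeted gene and 2 genes of earlier work on these data added; other list members and neighbours were chosen after their values were seen. Some items are not reported here. Members and lists were chosen with earlier results of these data known. Alternatives were 75th percentile scaling, quantile normalization of the mutants alone, normexp with an offset of 50, the authors' values, a filter of 6 of 8 arrays, no filter, all groups in 1 fit, a replicate block, sex as a covariate and leaving out each array.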

Additional observations from a re-analysis of the deposited data

Results flagged for a closer look

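A heart stood far from the other 3 of its group in 12 of 240 checks of 80 named genes and 40 lists in the mutants, where chance flags about 1 in 20. In TrbE10, replicate 2 stood apart for Nkx2-5 (log2 signal 11.67, others 11.21 to 11.27), Kit (6.71, others 6.45 to 6.48) and Slc27a1 (11.29, others 11.61 to 11.63). The same heart stood apart in the level of keratins and mesothelium (-0.54, others 0.56 to 0.68) and of respiratory complexes II to V (0.065, others -0.056 to -0.037). S100b was higher in TrbE10 replicate 4 (7.87, others 7.50 to 7.52). In TrbE14, replicate 3 was high for H2-Aa (9.30, others 8.77 to 8.85) and H2-Eb1 (12.18, others 11.36 to 11.48). Replicate 2 was low for Nppb (12.02, others 13.09 to 13.29) and Eps8l1 (4.99, others 6.32 to 6.47), and replicate 4 high for Ndufb2 (15.55, others 15.28 to 15.32) and for the endothelium list (0.083, others -0.017 to -0.011).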

How the results depend on the processing

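No gene passed the adjusted threshold under any alternative except the one without a filter, where 5 did, C79015 and 4 probes for unnamed genomic intervals, each well above background on at most 1 mutant array. Without the filter 1775 of 34844 names had an unadjusted p under 0.05. Leaving out 1 array gave 0 to 0 genes called and 715 (without TrbE10 replicate 3) to 1131 (without TrbE10 replicate 2) at the unadjusted level. Of 80 named genes, 3 turned direction: Nkx2-5 (0.0069 with sex as a covariate, 0.0089 without TrbE14 replicate 4), Gja5 (0.097 without TrbE14 replicate 1) and Bmp10 (0.020 after normexp, 0.25 without TrbE10 replicate 2). Over the arrays left out in turn these ran from -0.17 to 0.0089, from -0.34 to 0.097 and from -0.50 to 0.25. The cause was not tested. After normexp 35 of 80 named differences were smaller by over 1.5 times or turned, and in the authors' values 11 of 80; all kept their direction in the latter.

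With 1 array left out, 12 of 40 list medians turned. They ran from -0.23 to 0.064 (atrial), -0.31 to 0.10 (clock), -0.069 to 0.15 (collagens), -0.060 to 0.076 (conduction), -0.049 to 0.029 (endothelium), -0.27 to 0.47 (erythroid), -0.031 to 0.049 (fibroblasts), -0.18 to 0.34 (mast cells), -0.050 to 0.41 (monocytes and neutrophils), -0.15 to 0.14 (non-collagen matrix), -0.015 to 0.11 (Notch and neuregulin) and -0.054 to 0.029 (TGF-beta and BMP). Skeletal muscle turned after normexp (0.024) and heat shock with sex as a covariate (-0.0089). Keratins and mesothelium ran from 0.15 to 0.66, proliferation from 0.21 to 0.54, complement from 0.15 to 0.40, stress from 0.14 to 0.36, lymphocytes from 0.096 to 0.37 and potassium channels from -0.23 to -0.079.

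The replicate numbers of the labels were also used as a block, although the pairing has no basis in the labels. Deviations of same-numbered hearts correlated at 0.346, 0.303, -0.0085 and 0.487. Differently numbered hearts reached 0.410 (TrbE10 replicate 4 with TrbE14 replicate 3) and -0.512 (TrbE10 replicate 4 with TrbE14 replicate 1). The replicate number was also the row of the array on its slide. With this replicate block 0 genes were called, the smallest adjusted p was 0.416 and 1325 had an unadjusted p under 0.05 against 915.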
